A study of Mus musculus with 14 samples.

Results

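Cardiac myosin was followed through 9 genes: the heavy chains Myh7, Myh6 and Myh7b, the light chains Myl2, Myl3, Myl4, Myl7 and Myl1, and Mylk3, the cardiac myosin light chain kinase. The members were chosen by gene name for their part in cardiac myosin, with earlier results of these data known, and each was read through 1 probe set. All 9 were among the 19937 genes measured, and each had a single probe set with that symbol alone. Left ventricles of male mice on a C57BL/6 background were profiled on 1 Affymetrix mouse ST 1.0 array per mouse, 3 weeks after surgery. The groups were CXCR5-/- mice with aortic banding (AB, n = 4), WT mice with AB (n = 4), CXCR5-/- mice with Sham operation (n = 3) and WT mice with Sham operation (n = 3). In AB a ligature narrows the ascending aorta, so that the left ventricle pumps against a higher pressure. Sham mice were operated on without it. CXCR5 is the receptor of the chemokine CXCL13, and the CXCR5-/- mice lack it in every cell, so that no cell type is singled out. They were made in embryonic stem cells of another strain and backcrossed to C57BL/6, and the WT mice were bought from a breeder. Values are log2 expression as deposited. Differences are tested with limma, adjusted by Benjamini-Hochberg over all 19937 genes, and called below an adjusted p of 0.05.

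Myosin is the motor of the thick filament. Each molecule has a pair of heavy chains, which split ATP and pull on actin, and each heavy chain carries an essential and a regulatory light chain. The adult mouse ventricle runs on the fast alpha heavy chain (Myh6) with the ventricular light chains Myl2 (regulatory) and Myl3 (essential), whereas atria use Myl7 (regulatory) and Myl4 (essential). The slow beta heavy chain (Myh7) belongs to the fetal mouse ventricle and is known to return under pressure load, and Myl4 is likewise known from fetal ventricles. Because RNA came from whole tissue, fewer cells of a type and less RNA per cell cannot be told apart.

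The tissue was checked first. Myl2 lay between 12.35 and 12.66 on all 14 arrays, and the other markers of ventricular muscle did not pass the test in either AB comparison. The 2 atrial light chains, in contrast, spread widely within every group. WT Sham replicate 1 and CXCR5-/- Sham replicates 1 and 2 held the highest levels of both Myl7 (8.82 to 9.68) and Myl4 (10.08 to 10.68) of the 14 arrays. On the same 3 arrays, 6 of the 9 other atrial markers measured were also above each of the remaining 3 Sham arrays (Sln, Mybphl, Stard10, Dkk3, Nppa and Nr2f1), against 6.86% of all genes. Sln, an atrial inhibitor of the calcium pump, lay between 5.36 and 5.95 there and between 4.58 and 4.76 on the remaining Sham arrays. The gap was narrow for Nppa, at least 11.24 there and at most 11.15 on the remaining Sham arrays. For Dkk3 these values were 6.55 and 6.47, and for Nr2f1 they were 5.31 and 5.25. The study's methods state that the atria were removed before the ventricles were weighed. The changes of the members with AB are therefore also given without these 3. The probe set of the targeted gene, Cxcr5, did not check the labels: it lay between 3.85 and 4.47 on the arrays labelled CXCR5-/- and between 3.03 and 3.30 on the WT arrays, and whether it lies in the replaced part of the gene is not known here.

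The large change among the members was in the heavy chains, where Myh7 rose with AB in both genotypes while Myh6 stood slightly lower. Myh7 read 11.78, 11.49, 11.53 and 10.97 on the CXCR5-/- AB arrays, against 9.0, 9.02 and 8.76 on the CXCR5-/- Sham arrays. On the WT AB arrays it read 10.80, 10.51, 10.69 and 11.38, against 8.96, 8.90 and 8.90 on the WT Sham arrays. The lowest AB array stood well above the highest Sham array in either genotype. The change was 2.52 (SE 0.18) in CXCR5-/- hearts, 5.73-fold, with a limma adjusted p of 1.38e-07. In WT hearts it was 1.92 (SE 0.18), 3.80-fold, with a limma adjusted p of 4.55e-06. Among all genes these were the 7th and the 14th largest increases.

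**Figure D1:**
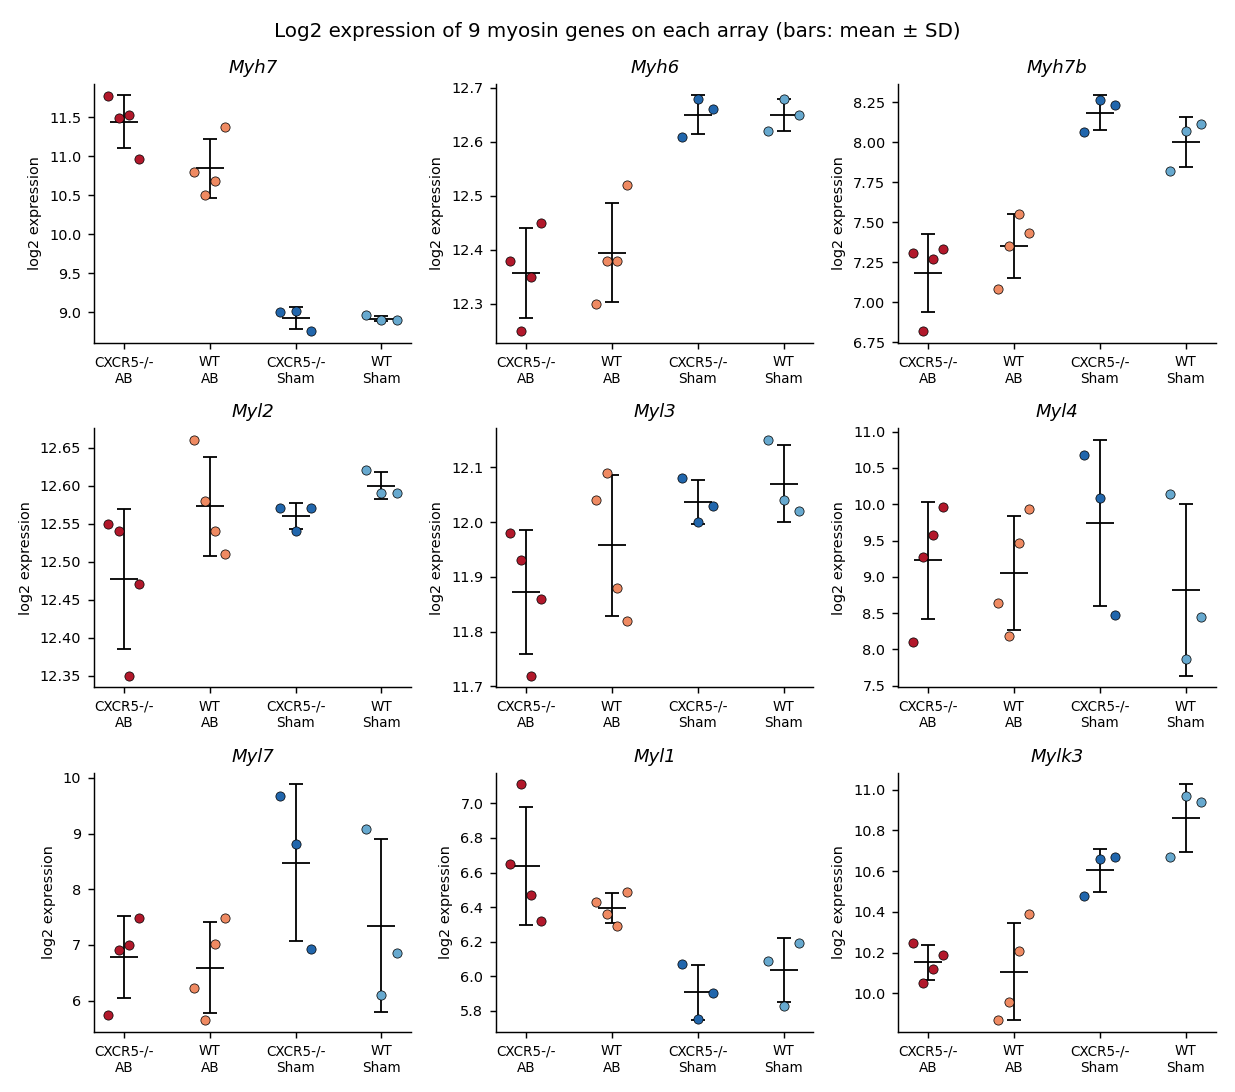
Log2 expression of the 9 myosin genes (vertical axes, each with its own scale that does not start at 0) on each array, by group along the horizontal axis. Points are arrays, and bars are the group mean ± SD (n = 4 for AB, n = 3 for Sham). Myh7 lies between 10.51 and 11.78 on the AB arrays and between 8.76 and 9.02 on the Sham arrays, whereas Myl4 and Myl7 spread over a wide range in every group.

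Myh6 read 12.38, 12.25, 12.35 and 12.45 on the CXCR5-/- AB arrays, against 12.61, 12.68 and 12.66 on the CXCR5-/- Sham arrays. It read 12.30, 12.38, 12.38 and 12.52 on the WT AB arrays, against 12.62, 12.68 and 12.65 on the WT Sham arrays. AB and Sham arrays did not overlap in either genotype, but the step in signal was small beside that of Myh7. The probe set of Myh6 stands at percentile 99.9 of mean level and that of Myh7 at 98.1. Whether equal steps in signal stand for equal changes of transcript at these levels was not tested. Myh6 fell by 0.29 (SE 0.08) in CXCR5-/- hearts, with a limma adjusted p of 0.0232. In WT hearts the difference was -0.25 (SE 0.08) with a limma adjusted p of 0.066, just outside the threshold. The call in CXCR5-/- hearts was lost without CXCR5-/- AB replicate 2, Sham replicate 2 or Sham replicate 3 (adjusted p = 0.0766, 0.0881 and 0.0787) and under quantile normalization (adjusted p = 0.0948). The WT difference passed without WT AB replicate 4 (adjusted p = 0.0378), with array weights (adjusted p = 0.0129), with median centring (adjusted p = 0.0419) and with the filter on dim genes (adjusted p = 0.0447), and by significance analysis of microarrays (q = 0.0466).

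The shift between the heavy chains was read within each array as Myh7 minus Myh6, which cannot be moved by a scaling common to both. It averaged -0.91 ± 0.39 in CXCR5-/- AB, -1.55 ± 0.31 in WT AB, -3.73 ± 0.15 in CXCR5-/- Sham and -3.73 ± 0.06 in WT Sham hearts (SD, n = 4, 4, 3 and 3). The AB minus Sham difference was thus 2.81 in CXCR5-/- and 2.18 in WT hearts. The level of 1 probe set cannot be set against another's, so these differences show a change of the balance between the chains and not which chain was the more abundant. No test was made on this measure, since both genes were chosen with results known.

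Myh6 and Myh7 lie next to each other on chromosome 14, and each carries a microRNA inside its span, as does Myh7b on chromosome 2. The mature sequences from RefSeq (GRCm38.p6) are shown because Mir208a changed with AB, with the seed, bases 2 to 8, in capitals.
miR-208a-3p, within Myh6 (chr14:54949072-54949093, minus strand): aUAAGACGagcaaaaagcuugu
miR-208b-3p, within Myh7 (chr14:54975710-54975731, minus strand): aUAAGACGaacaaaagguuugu
miR-499-5p, within Myh7b (chr2:155622893-155622913, plus strand): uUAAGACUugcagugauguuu
The first and second share their seed and differ at 3 of 22 bases, counted from the 5′ end as G10A, A16G and C18U from miR-208a-3p to miR-208b-3p. The seed of miR-499-5p differs from theirs only at its last base, base 8.

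Mir208a fell with AB in both genotypes. It read 6.67, 6.35, 6.80 and 6.36 on the CXCR5-/- AB arrays, against 7.18, 7.71 and 7.72 on the CXCR5-/- Sham arrays. The WT AB arrays read 6.26, 6.85, 6.54 and 6.71, against 7.48, 6.99 and 7.77 on the WT Sham arrays. No AB array reached the lowest Sham array of its genotype. The fall was 0.99 (SE 0.18, limma adjusted p 0.00126) in CXCR5-/- and 0.82 (SE 0.18, limma adjusted p 0.00826) in WT hearts, and the WT call was lost without WT Sham replicate 3 (adjusted p = 0.0726). A probe set of a hairpin can also bind the unspliced host transcript, so the level of the mature microRNA was not measured. Mir499, within Myh7b, averaged 3.09 ± 0.19 in CXCR5-/- AB and 3.27 ± 0.27 in CXCR5-/- Sham hearts (SD). It averaged 3.31 ± 0.06 in WT AB and 3.41 ± 0.17 in WT Sham hearts, and did not pass (limma adjusted p 0.448 and 0.765). Its probe set stood at percentile 16.8 of mean level, and that of Mir208a at 75.3. At so low a signal, not passing does not show that Mir499 was unchanged. Mir208b, within Myh7, was not analysed here.

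The stretches just before the RefSeq starts of both heavy chain genes each hold 1 MCAT motif, the binding site of TEAD factors in cardiac promoters, spelled CATTCC or, on the opposite strand, GGAATG. They are shown because Myh7 rose while Myh6 fell in CXCR5-/- hearts, with the motif in capitals and each sequence read 5′ to 3′ on the gene's own strand up to the base before the start (GRCm38.p6).
Myh7, chr14:54994627-54994876, minus strand: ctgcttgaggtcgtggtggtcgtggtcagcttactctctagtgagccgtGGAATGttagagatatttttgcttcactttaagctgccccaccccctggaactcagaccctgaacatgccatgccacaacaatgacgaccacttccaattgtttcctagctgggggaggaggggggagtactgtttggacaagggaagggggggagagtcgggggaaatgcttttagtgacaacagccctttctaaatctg
Myh6, chr14:54966608-54966857, minus strand: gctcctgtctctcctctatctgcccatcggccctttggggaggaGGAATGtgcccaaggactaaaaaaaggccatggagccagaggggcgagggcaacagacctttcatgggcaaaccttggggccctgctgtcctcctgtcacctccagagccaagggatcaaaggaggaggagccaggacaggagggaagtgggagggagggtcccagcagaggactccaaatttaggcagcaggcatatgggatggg
In both genes the motif stands on the opposite strand, starting 201 bases before the start of Myh7 and 206 bases before that of Myh6. Of 32851 promoter entries, 12.6% hold the motif on either strand in the 250 bases before the start, and among the 12 entries of the 9 members, 6 do (Myh6, Myh7, Myl1, Myl3, Myl7 and Mylk3). A second start listed for Myh7 has none in its window. Tead1, a factor of that family, chosen after its values were seen, averaged 10.28 ± 0.13 in CXCR5-/- AB and 10.06 ± 0.09 in CXCR5-/- Sham hearts (SD), and 10.15 ± 0.09 in WT AB and 10.02 ± 0.12 in WT Sham hearts, and did not pass (limma adjusted p 0.16 and 0.493).

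**Figure D2:**
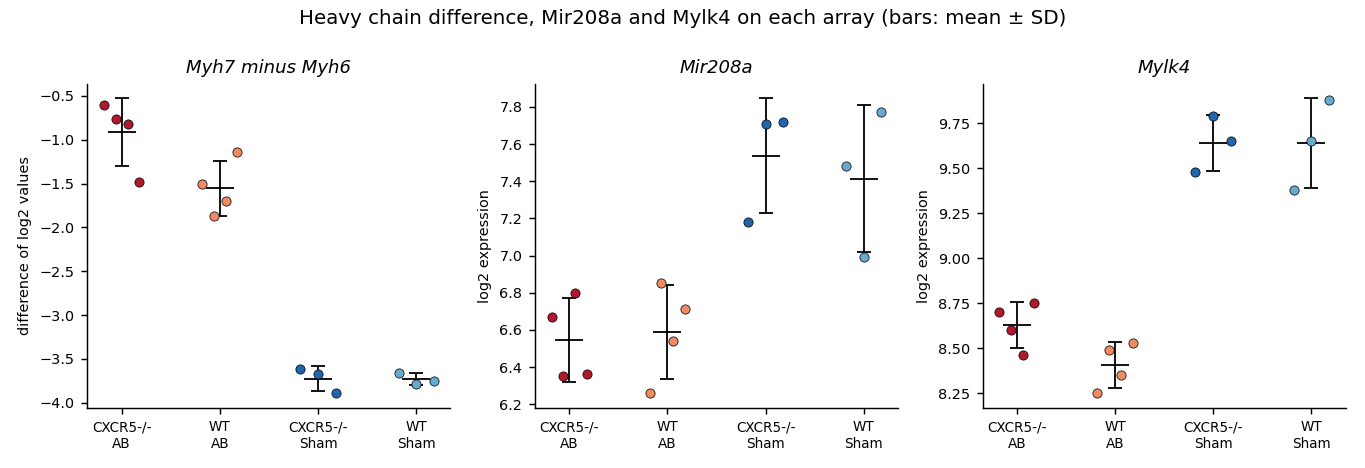
Myh7 minus Myh6 within each array (left, difference of log2 values), and the log2 expression of Mir208a (middle) and Mylk4 (right), by group along the horizontal axis, with axes that do not start at 0. Points are arrays and bars are the group mean ± SD (n = 4 for AB, n = 3 for Sham). The heavy chain difference lies between -1.87 and -0.60 on the AB arrays and between -3.89 and -3.62 on the Sham arrays.

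Myh7b, a further sarcomeric heavy chain gene of the heart, went the opposite way from Myh7. It read 7.31, 6.82, 7.27 and 7.33 on the CXCR5-/- AB arrays, against 8.06, 8.26 and 8.23 on the CXCR5-/- Sham arrays. It read 7.08, 7.35, 7.55 and 7.43 on the WT AB arrays, against 7.82, 8.07 and 8.11 on the WT Sham arrays. All 8 AB arrays were below all 6 Sham arrays. Myh7b fell by 1.0 (SE 0.13, limma adjusted p 6.9e-05) in CXCR5-/- hearts, a 2.0-fold lower level. In WT hearts it fell by 0.64 (SE 0.13, limma adjusted p 0.00471), a 1.56-fold lower level.

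Of the 9 members, 2 rose and 3 fell with AB in CXCR5-/- hearts, against 8.28% and 5.86% over all genes. In WT hearts 1 rose and 2 fell, against 5.1% and 4.22% over all genes. The median change of the members was -0.29 in CXCR5-/- hearts, against -0.01 over all genes, and -0.11 in WT hearts, against 0.01 over all genes. With each array centred on its own median, the split of all genes called turned to 1346 higher and 1449 lower in CXCR5-/- hearts, against 1650 higher and 1168 lower with the deposited values. In WT hearts it turned to 794 higher and 979 lower, against 1016 higher and 842 lower. The called members held their directions under this scaling.

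**Figure D3:**
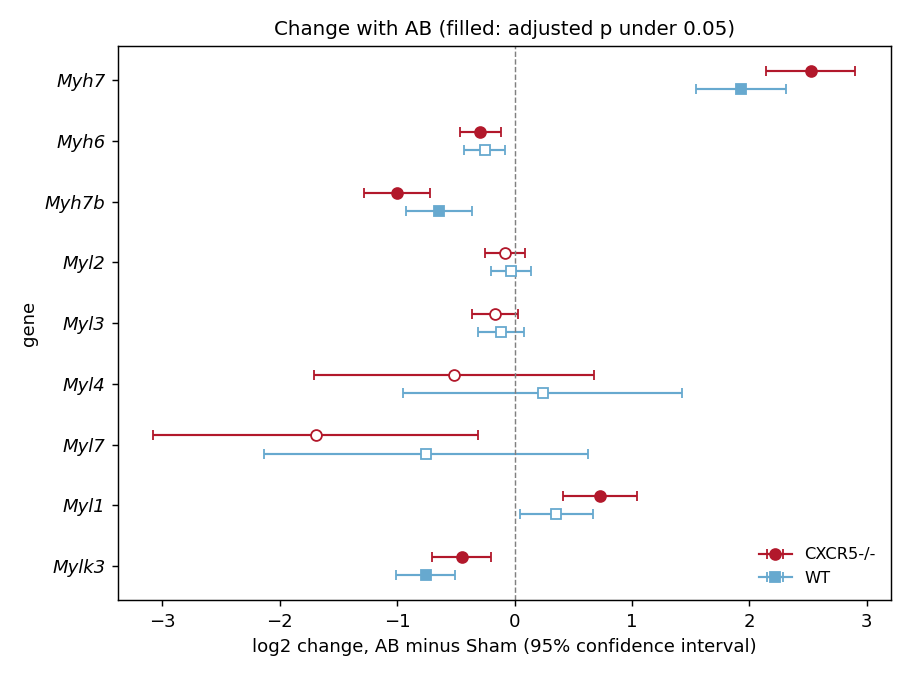
Log2 change of each gene, AB minus Sham (horizontal axis), in CXCR5-/- hearts (circles) and WT hearts (squares), with 95% confidence intervals from the limma fit. Filled symbols passed an adjusted p of 0.05. Myh7 stands apart at 2.52 in CXCR5-/- and 1.92 in WT hearts, and the intervals of Myl4 and Myl7 are the widest of the 9 genes.

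The ventricular light chains did not pass in either genotype. Myl2 averaged 12.48 ± 0.09 in CXCR5-/- AB and 12.56 ± 0.02 in CXCR5-/- Sham hearts (SD, n = 4 and 3), a difference of -0.08 with a 95% interval of -0.25 to 0.09. In WT hearts it averaged 12.57 ± 0.06 with AB and 12.60 ± 0.02 with Sham operation, a difference of -0.03 with an interval of -0.20 to 0.14. Its sign turned under quantile normalization in both genotypes. Without the 3 Sham arrays high in Myl7 it differed by -0.09 in CXCR5-/- and -0.02 in WT hearts. Myl3 averaged 11.87 ± 0.11 in CXCR5-/- AB and 12.04 ± 0.04 in CXCR5-/- Sham hearts, a difference of -0.17 (interval -0.36 to 0.03, limma adjusted p 0.29). In WT hearts it averaged 11.96 ± 0.13 with AB and 12.07 ± 0.07 with Sham operation, a difference of -0.11 (interval -0.31 to 0.08, limma adjusted p 0.557). Without those 3 arrays Myl3 differed by -0.16 and -0.07. In CXCR5-/- hearts the highest AB array of Myl3, at 11.98, lay just below the lowest Sham array, at 12.0. In WT hearts its AB and Sham arrays overlapped. In measured signal Myl2 and Myl3 are thus bounded to changes within these intervals, though this does not show that they were unchanged. Their probe sets stand at percentile 99.9 and 99.8 of mean level. Whether signal that high still follows the amount of transcript was not tested.

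The atrial light chains varied with single arrays. Myl7 read 5.74, 6.91, 7.0 and 7.49 on the CXCR5-/- AB arrays, against 9.68, 8.82 and 6.93 on the CXCR5-/- Sham arrays. It read 6.23, 5.65, 7.01 and 7.48 on the WT AB arrays, against 9.09, 6.10 and 6.85 on the WT Sham arrays. AB and Sham arrays overlapped in both genotypes, and 1 WT Sham array stood far above the others. The difference was -1.69 (SE 0.66) in CXCR5-/- hearts, with a limma adjusted p of 0.102, and -0.75 (SE 0.66) in WT hearts, with a limma adjusted p of 0.587. In CXCR5-/- hearts it was the second largest decrease of 19937 genes, and it passed without CXCR5-/- Sham replicate 3 (adjusted p = 0.0238) or WT Sham replicate 1 (adjusted p = 0.0451), with the compared groups alone (adjusted p = 0.0463) and by significance analysis of microarrays (q = 0.00953). Without the 3 Sham arrays high in Myl7, it was -0.14 in CXCR5-/- and 0.12 in WT hearts (limma adjusted p 0.961 and 0.924, with 1 CXCR5-/- Sham array left, which is assumed to vary like the others). Since these arrays were picked for their Myl7, leaving them out had to raise this difference, and these values are a description.

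Myl4 spread in nearly the same order as Myl7 over the arrays of each operation but did not take the same course with AB. It read 8.10, 9.27, 9.58 and 9.96 on the CXCR5-/- AB arrays, against 10.68, 10.08 and 8.47 on the CXCR5-/- Sham arrays. It read 8.64, 8.19, 9.47 and 9.93 on the WT AB arrays, against 10.14, 7.87 and 8.45 on the WT Sham arrays. The groups overlapped, and the difference was -0.52 (SE 0.56, limma adjusted p 0.65) in CXCR5-/- and 0.24 (SE 0.56, limma adjusted p 0.882) in WT hearts, where its sign turned without WT AB replicate 4 or WT Sham replicate 2. The array with the most Myl7 in a group also had the most Myl4 in all 4 groups. The offset between the 2 genes, however, differed between operations. Myl4 minus Myl7 lay between 2.36 and 2.57 on all 8 AB arrays and between 1.0 and 1.77 on all 6 Sham arrays. It averaged 2.44 ± 0.10 in CXCR5-/- AB, 2.47 ± 0.05 in WT AB, 1.27 ± 0.27 in CXCR5-/- Sham and 1.47 ± 0.37 in WT Sham hearts (SD). Among the Sham arrays it was lowest on the 3 with the most Myl7, at 1.0, 1.26 and 1.05, against 1.54, 1.77 and 1.60 on the other Sham arrays.

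**Figure D4:**
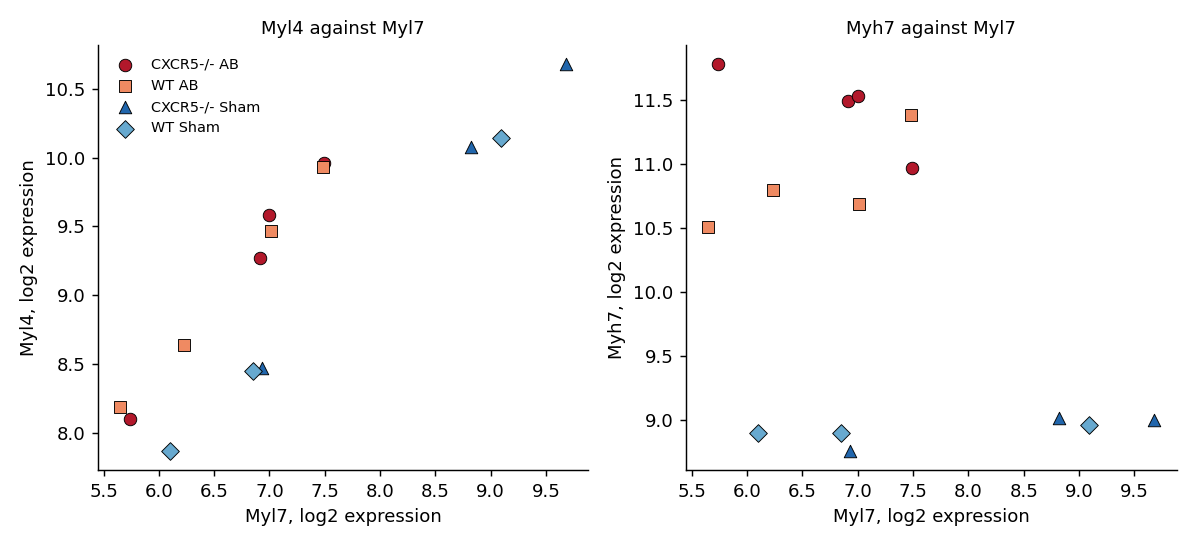
Log2 expression of Myl4 (left) and Myh7 (right) against that of Myl7 on the 14 arrays, with symbols by group and axes that do not start at 0. At like Myl7 the AB arrays lie above the Sham arrays in Myl4, by 0.78 to 1.13 in the 7 pairs within 0.2 of each other in Myl7, which share arrays, and each AB array lies above each Sham array in Myh7.

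Arrays with nearly the same Myl7 can be set side by side. CXCR5-/- Sham replicate 3 had 6.93 of Myl7 and 8.47 of Myl4. CXCR5-/- AB replicate 2 had 6.91 of Myl7 and 9.27 of Myl4, and CXCR5-/- AB replicate 3 had 7.0 and 9.58 of them. In the WT hearts, AB replicate 3 had 7.01 of Myl7 and 9.47 of Myl4, whereas Sham replicate 3 had 6.85 and 8.45 of them. Over the 7 pairs of an AB and a Sham array of either genotype within 0.2 of each other in Myl7, a limit chosen after the values were seen, the AB array had 0.78 to 1.13 more Myl4. The pairs reuse 4 AB and 3 Sham arrays and restate the offset, which does not overlap between operations, so they are no further support for it. With the Myl7 level of each array as a covariate, Myl4 rose by 0.92 (SE 0.13, limma adjusted p 0.000247) in CXCR5-/- and by 0.88 (SE 0.12, limma adjusted p 0.000171) in WT hearts. This fit restates the same offset, between genes chosen with results known, and is no further support for it either. With Sln as the covariate instead, the change of Myl4 was -0.06 (SE 0.27, limma adjusted p 0.928) and 0.19 (SE 0.26, limma adjusted p 0.765), and that of Myl7 was -1.16 (SE 0.28, limma adjusted p 0.0114) and -0.81 (SE 0.28, limma adjusted p 0.0828). The probe set of Sln stood at percentile 47.9 of mean level, that of Myl4 at 95.3 and that of Myl7 at 78.6. In the same 7 pairs Sln was higher on the AB array by 0.28 to 0.60. The difference in Mybphl, an atrial relative of myosin-binding protein, ran from -0.03 to 0.76. The data therefore show that the balance of the 2 atrial light chains differed between operations, and they do not show whether Myl4 was higher or Myl7 lower.

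The heavy chain change was of like size when these atrial transcripts were taken into account. With the Myl7 level as a covariate Myh7 rose by 2.59 in CXCR5-/- and 1.96 in WT hearts, with Sln by 2.51 and 1.93, and without the 3 Sham arrays high in Myl7 by 2.68 and 1.94. The largest limma adjusted p among these fits was 0.000403. On those 3 Sham arrays Myh7 was 8.96, 9.0 and 9.02, against 8.90, 8.90 and 8.76 on the other Sham arrays, a gap that is small beside the change with AB. Within AB, Myh7 and Myl7 stood in different orders in the 2 genotypes. In CXCR5-/- hearts the array with the most Myh7 (replicate 1, 11.78) had the least Myl7, and the array with the least Myh7 (replicate 4, 10.97) had the most. In WT hearts the array with the most Myh7 (replicate 4, 11.38) had the most Myl7. Myh6 lost its call in CXCR5-/- hearts with Myl7 as covariate (-0.29, adjusted p = 0.0881). Without the 3 arrays the calls of Myh6 (adjusted p = 0.254), Mylk3 (adjusted p = 0.136) and Myl1 (adjusted p = 0.108) in CXCR5-/- hearts were lost, which left 2 of 5. Their differences there were -0.30, -0.51 and 0.73, of like size to those over all arrays, and the SEs were larger, at 0.13, 0.17 and 0.23, with 1 CXCR5-/- Sham array left. Without the same arrays Myh7b fell by 1.05 in CXCR5-/- and 0.74 in WT hearts (limma adjusted p 0.011 and 0.0117) and Mylk3 fell by 0.85 in WT hearts (limma adjusted p 0.00219), while in WT hearts Myh6 differed by -0.27 and Myl1 by 0.39, without passing. Myl4 differed by 0.76 in CXCR5-/- and 0.90 in WT hearts, without passing.

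The remaining atrial markers did not move as a block with AB. Nppa, the gene of atrial natriuretic peptide, rose by 1.39 in CXCR5-/- and 1.78 in WT hearts (limma adjusted p 2.46e-06 and 3.55e-07). The study uses this peptide's gene as a marker of hypertrophy, and the part of atrial tissue in its rise with AB was not tested. Kcnj3, an atrial potassium channel subunit, fell by 1.49 and 1.25 (limma adjusted p 5.58e-06 and 6.43e-05). On the 3 Sham arrays high in Myl7 Kcnj3 read 7.74, 7.85 and 7.76, against 7.74, 7.81 and 7.96 on the other Sham arrays. Stard10 fell by 0.95 in CXCR5-/- hearts (limma adjusted p 0.0255), a call lost without the 3 Sham arrays (adjusted p = 0.658) and without any one of CXCR5-/- AB replicates 1 and 2 and Sham replicates 1 and 2 (adjusted p from 0.073 to 0.151), and differed by -0.67 in WT hearts. Sln, Bmp10, Dkk3, Nr2f1, Gja5 and Mybphl did not pass, with changes between -0.49 and 0.96 in CXCR5-/- and between -0.11 and 0.79 in WT hearts. The median change of the 9 markers was -0.05 in CXCR5-/- and 0.01 in WT hearts. The mean level over the 9 ranged from 6.55 to 7.45 on CXCR5-/- AB, 6.48 to 6.88 on WT AB, 6.52 to 7.18 on CXCR5-/- Sham and 6.45 to 6.91 on WT Sham arrays.

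Myl1, the essential light chain of fast skeletal muscle, is low in adult mouse heart. It read 6.65, 7.11, 6.47 and 6.32 on the CXCR5-/- AB arrays, against 6.07, 5.75 and 5.90 on the CXCR5-/- Sham arrays. It read 6.43, 6.36, 6.29 and 6.49 on the WT AB arrays, against 6.09, 5.83 and 6.19 on the WT Sham arrays. Each AB array lay above each Sham array. Myl1 rose by 0.73 (SE 0.15, limma adjusted p 0.00266) in CXCR5-/- hearts, 1.66-fold. The WT difference of 0.36 (SE 0.15) did not pass (limma adjusted p 0.165). Over all genes 8.28% rose with AB in CXCR5-/- and 5.1% in WT hearts. Of 10 other fast skeletal muscle genes only Mybpc2, fast myosin-binding protein C, passed, and it rose by 0.48 in CXCR5-/- and 0.67 in WT hearts (limma adjusted p 0.0231 and 0.00415). The call in CXCR5-/- hearts was lost without any one of CXCR5-/- AB replicates 3 and 4 and Sham replicates 2 and 3 (adjusted p from 0.052 to 0.108). The mean level over the 10 ranged from 5.10 to 5.14 on CXCR5-/- AB, 4.97 to 5.28 on WT AB, 5.01 to 5.23 on CXCR5-/- Sham and 4.91 to 5.15 on WT Sham arrays, so the groups overlapped. CXCR5-/- AB replicate 2 had the highest Myl1 of the 14 arrays, and also the highest Myl6b (6.47) and Alas2, a gene of red blood cell precursors (8.70, against at most 8.09 elsewhere). Their part in the result was not tested. Without that array Myl1 rose by 0.57 in CXCR5-/- hearts, with a limma adjusted p of 0.00502.

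Mylk3, which phosphorylates Myl2 and so tunes the force of the thick filament, was lower with AB in both genotypes. It read 10.25, 10.05, 10.12 and 10.19 on the CXCR5-/- AB arrays, against 10.48, 10.66 and 10.67 on the CXCR5-/- Sham arrays. It read 9.87, 9.96, 10.21 and 10.39 on the WT AB arrays, against 10.67, 10.97 and 10.94 on the WT Sham arrays. Neither genotype showed an overlap between AB and Sham arrays. Mylk3 fell by 0.45 (SE 0.12, limma adjusted p 0.0167) in CXCR5-/- and by 0.76 (SE 0.12, limma adjusted p 0.000592) in WT hearts, a 1.37-fold and a 1.69-fold lower level. The call in CXCR5-/- hearts was lost without CXCR5-/- AB replicate 2 (adjusted p = 0.0508), Sham replicate 2 (adjusted p = 0.0735) or Sham replicate 3 (adjusted p = 0.0755). Over all genes 8.28% rose and 5.86% fell with AB in CXCR5-/- hearts, and 5.1% and 4.22% in WT hearts. Among 7 other light chain kinases and phosphatase subunits, 0 rose and 1 fell in each genotype. That 1 was Mylk4, a kinase of the same family found in striated muscle, which fell by 1.01 in CXCR5-/- and 1.23 in WT hearts (limma adjusted p 2.24e-05 and 6.77e-06). It averaged 8.63 ± 0.13 in CXCR5-/- AB and 9.64 ± 0.15 in CXCR5-/- Sham hearts, and 8.41 ± 0.13 in WT AB and 9.63 ± 0.25 in WT Sham hearts (SD).

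Around the myosin molecule, most other genes of the thick filament did not pass. Of 13 measured, 0 rose and 1 fell in each genotype, with a median change of -0.09 in CXCR5-/- and -0.06 in WT hearts. The shares over all genes were 8.28% higher and 5.86% lower in CXCR5-/- hearts, and 5.1% and 4.22% in WT hearts. The gene that fell was Unc45b, the chaperone that folds the myosin motor domain. It averaged 7.97 ± 0.13 in CXCR5-/- AB and 9.03 ± 0.12 in CXCR5-/- Sham hearts, and 8.23 ± 0.18 in WT AB and 9.03 ± 0.13 in WT Sham hearts (SD). It fell by 1.06 in CXCR5-/- and 0.80 in WT hearts (limma adjusted p 6.16e-06 and 0.00019).

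Of 13 other myosin II heavy and light chains, 5 rose and 1 fell in CXCR5-/- hearts, against 8.28% and 5.86% of all genes. In WT hearts 3 rose and 1 fell, against 5.1% and 4.22% of all genes. The median change was 0.20 in CXCR5-/- and 0.18 in WT hearts. The risers were light chains and 1 heavy chain of nonmuscle myosin. The heavy chain was Myh10, which rose by 0.365 in CXCR5-/- hearts (limma adjusted p 0.035). It differed by 0.33 in WT hearts (limma adjusted p 0.0804). The light chain Myl6 rose by 0.42 in CXCR5-/- and 0.47 in WT hearts (limma adjusted p 0.0483 and 0.0399). Of its 5 probe sets the one with the highest mean was used. In CXCR5-/- hearts its AB and Sham arrays overlapped. The calls of Myh10 and Myl6 were not followed with single arrays left out. Myl12b and Myl12a, the regulatory light chains of nonmuscle myosin, rose by 0.63 and 0.39 in CXCR5-/- hearts (limma adjusted p 0.000886 and 0.00244) and by 0.50 and 0.34 in WT hearts (limma adjusted p 0.00785 and 0.00905). Without WT Sham replicate 2 the WT call of Myl12a was lost (adjusted p = 0.0695). Myl6b, an alkali light chain of nonmuscle and slow muscle myosin, rose by 0.98 in CXCR5-/- hearts (limma adjusted p 0.00318), differed by 0.46 in WT hearts (limma adjusted p 0.202), and without CXCR5-/- AB replicate 2 rose by 0.72 in CXCR5-/- hearts and passed in WT hearts (adjusted p = 0.0202). Myh14, a nonmuscle heavy chain, fell by 0.39 in CXCR5-/- and 0.30 in WT hearts (limma adjusted p 0.00849 and 0.0499), and the WT call was lost without 11 of the 14 arrays in turn, that in CXCR5-/- hearts without CXCR5-/- Sham replicate 2 (adjusted p = 0.0632). Markers of other cells moved partly alongside. Of 6 smooth muscle markers, Tagln rose in CXCR5-/- hearts, by 0.55 (limma adjusted p 0.0196), and none passed in WT hearts. The 6 did not move together. Their changes ran from -0.44 (Myh11) to 0.55 (Tagln) in CXCR5-/- hearts, with a median of 0.09. In WT hearts they ran from -0.32 (Myocd) to 0.31 (Tagln), with a median of 0.12. The call of Tagln was lost without CXCR5-/- Sham replicate 1 or 3 (adjusted p = 0.0591 and 0.127). Of 5 mesothelial markers none passed, with a median change of 0.45 in CXCR5-/- and 0.55 in WT hearts. The mean level of the mesothelial list ranged from 5.33 to 6.35 on CXCR5-/- AB, 5.40 to 6.21 on WT AB, 5.23 to 5.63 on CXCR5-/- Sham and 5.07 to 5.51 on WT Sham arrays. Genes of fibroblasts and leukocytes rose with AB. Col1a1, a collagen chain, rose by 1.41 in CXCR5-/- and 1.53 in WT hearts (limma adjusted p 0.000144 and 0.000127). Ptprc, the pan-leukocyte antigen CD45, rose by 0.80 and 0.53 (limma adjusted p 8.6e-05 and 0.00468). The fibroblast markers Dcn and Pdgfra rose by 0.56 and 0.43 in CXCR5-/- hearts (limma adjusted p 0.00515 and 0.0384) and differed by 0.29 and 0.15 in WT hearts, without passing. The endothelial markers Pecam1 and Cdh5 did not pass in either genotype. The part of these cells in the rise of the nonmuscle chains was not tested.

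The heavy chain genes are under known regulators, chief among them thyroid hormone, which favours Myh6 over Myh7. Of 19 such regulators measured, 1 rose and 3 fell with AB in CXCR5-/- hearts, against 8.28% and 5.86% of all genes. In WT hearts 1 rose and 4 fell, against 5.1% and 4.22% of all genes. The medians were -0.05 and 0.02. Rxra and Mef2a were called in WT hearts alone, where they fell by 0.54 and 0.35 (limma adjusted p 0.038 and 0.0479). In CXCR5-/- hearts they differed by -0.45 and -0.23 (limma adjusted p 0.0651 and 0.169). Neither WT call was followed with single arrays left out, and AB and Sham arrays of Rxra overlapped in WT hearts. Dio2, the enzyme that makes the active hormone, rose by 1.43 in CXCR5-/- and 1.24 in WT hearts (limma adjusted p 0.000288 and 0.00157). Its means were 6.59 ± 0.44 in CXCR5-/- AB and 5.16 ± 0.24 in CXCR5-/- Sham hearts, and 6.35 ± 0.41 in WT AB and 5.11 ± 0.22 in WT Sham hearts (SD). Thrb, a thyroid hormone receptor, fell by 0.78 and 0.74 (limma adjusted p 0.000377 and 0.000965). Slc16a10, a transporter that carries the hormone across the cell membrane, fell by 0.92 and 0.76 (limma adjusted p 0.000535 and 0.00398). Sox6, a repressor of slow muscle genes that miR-208b and miR-499 are known to target, fell by 0.36 in CXCR5-/- hearts (limma adjusted p 0.0104) and differed by -0.28 in WT hearts (limma adjusted p 0.0545), and its call was lost without CXCR5-/- Sham replicate 2 (adjusted p = 0.0737) and made in WT hearts without WT AB replicate 4 (adjusted p = 0.0282) or WT Sham replicate 1 (adjusted p = 0.041).

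The genes whose levels tracked those of the members most closely were sought among 16943 named genes over the 14 arrays, by Pearson r. The arrays fall into 4 groups, so that r includes the difference between AB and Sham arrays, and it is given as a description. For Myh7 they were Serping1 (r = 0.997), Ccn2 (0.987), Tgfb2 (0.987), Niban1 (0.984) and Sparc (0.984), which include a complement inhibitor (Serping1), a growth factor (Tgfb2) and 2 matricellular proteins (Ccn2 and Sparc). For Myh6 they were Atp2a2, the calcium pump of the sarcoplasmic reticulum (0.987), Abcc9 (0.985), Rnf207 (0.983), Ivd (0.98) and Crat (0.979). For Myl7 they were Fgf12 (0.917), Mybphl (0.903), Sbk3 (0.89), Myl4 (0.889) and Rxfp1 (0.889). Myl4 was the one member among these 5. Over the 6 Sham arrays alone, r for the same genes ran from -0.02 (Sparc) to 0.94 (Serping1) with Myh7, from 0.53 (Crat) to 0.95 (Abcc9) with Myh6, and from 0.96 (Fgf12) to 0.999 (Myl4) with Myl7.

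The last question was whether the members differed between genotypes, and here the arrays are named by their labels because Cxcr5 did not check them. For the difference of the AB response between hearts labelled CXCR5-/- and WT hearts, 0 of the 9 members passed by limma, against 0% of all genes, whose smallest adjusted p was 0.804. At an unadjusted p under 0.05 there was 1 member, Myh7, and 574 of all genes. The response of Myh7 was larger by 0.59 (SE 0.26) in hearts labelled CXCR5-/-, with a 95% interval of 0.05 to 1.14 and a limma adjusted p of 1. Responses of the other members differed by between -0.94 (Myl7) and 0.37 (Myl1), and the intervals of Myl7 (-2.89 to 1.02) and Myl4 (-2.44 to 0.93) were too wide to bound a difference. Myh6 was bounded more tightly, at -0.04 with an interval of -0.29 to 0.21.

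After AB, 0 of the 9 members passed between hearts labelled CXCR5-/- and WT by limma, against 0.0451% of all genes, 9 in number (21 with the replicate block, 34 without CXCR5-/- AB replicate 4, 5 without its replicate 2 and 4 without its replicate 3), and 0 members passed with the block or by significance analysis of microarrays. Myh7 alone had an unadjusted p under 0.05. It averaged 11.44 ± 0.34 in AB hearts labelled CXCR5-/- and 10.84 ± 0.38 in WT AB hearts (SD, n = 4 each), a difference of 0.60 (SE 0.17, interval 0.25 to 0.96) with a limma adjusted p of 0.349. The groups overlapped through 1 array on either side: CXCR5-/- AB replicate 4, at 10.97, was the lowest of its group, and WT AB replicate 4, at 11.38, the highest of its own. Left out singly, these arrays gave differences of 0.76 (adjusted p = 0.0712) and 0.78 (adjusted p = 0.0911), so neither brought Myh7 past the threshold. The order of Myh7 levels was thus CXCR5-/- AB, WT AB, CXCR5-/- Sham and WT Sham, of which the AB groups differed by more than their SD but did not pass, and the Sham groups (8.93 ± 0.14 and 8.92 ± 0.03) did not differ beyond their spread. For the 8 other members the genotype difference after AB ran from -0.17 (Myh7b) to 0.24 (Myl1).

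After Sham operation, 0 of the 9 members passed by limma, against 0.0401% of all genes, and 0 had an unadjusted p under 0.05 or passed by significance analysis of microarrays. Myh7 differed by 0.01 (interval -0.40 to 0.42) and Myh6 by 0.00 (interval -0.18 to 0.19). Myl7 was 1.13 and Myl4 0.92 higher in Sham hearts labelled CXCR5-/-, which ranked 2nd and 3rd of 19937 genes by size, yet with SEs of 0.70 and 0.60 and a limma adjusted p of 1 for both. Of the 3 arrays high in Myl7, 2 were among the 3 CXCR5-/- Sham arrays and 1 among the 3 WT Sham arrays.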

How the data were processed

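Left ventricular RNA of 14 mice was hybridised to 1 array each, and the number of arrays limits the precision. The authors made log2 values per probe set with robust multi-array average (RMA), and these were used as deposited. Its version and the build behind the array annotation were not given in sources used here. Of 34760 probe sets, 21640 had 1 gene symbol, 1321 several and 11799 were not listed. Symbols were updated through RefSeq (GRCm38.p6, 21553 matched). Where a gene had several probe sets (954 of 19937), the one with the highest mean was used. The study's methods and the sample labels name different RNA kits.

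In R 4.3.3, limma 3.58.1 fitted 4 group means (10 residual degrees of freedom), with Benjamini-Hochberg adjustment over all genes. The study's significance analysis of microarrays was written out as an alternative, with q in place of the adjusted p. Other alternatives were array weights, variance models, a filter at the 30th percentile, quantile normalization, median centring, all probe sets, the compared groups alone, Sln or Myl7 as a covariate, a block for replicate number, and leaving out single arrays. Between the AB groups, arrays of the same number deviated together (r 0.125 to 0.22 across genes in 4 of 4 pairs), although neither labels nor methods give the number a meaning, and the fit with it as a block was an alternative. The steps were tested on simulated data.

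The members and lists were chosen with earlier results of these data known. Named genes were all 9 members, up to 4 members of each list with the smallest p among those that passed (2 where none did), each atrial marker, and the 5 genes most like Myh7, Myh6 and Myl7. Rxra, Mef2a, Myl6 and Myh10 are also named, since the counts of their lists include them. Replicates are separate mice.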

Additional observations from a re-analysis of the deposited data

Results flagged for a closer look

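In the AB groups of 4 arrays, 37 measures were screened for an array far from the other 3 (a gap over Dixon's critical share of the group's range), which chance gives in about 1 in 20 groups. Of 74 groups, 5 had such an array, and all 5 were CXCR5-/- AB arrays. Replicate 2 had the lowest Myh7b, at 6.82 against 7.27 to 7.33 on the other CXCR5-/- AB arrays, and the highest Myl6b, at 6.47 against 5.3 to 5.47. Replicate 4 had the highest Bmp10, an atrial growth factor, at 6.78 against 3.17 to 3.29, and of the 14 arrays no other had more than 3.32. On replicate 4 Kcnj3 was 6.84 against 6.05 to 6.18, and Sox6 was 6.62 against 6.49 to 6.50. The same array had the lowest Myh7 and the highest Myl7 and Myl4 of the CXCR5-/- AB group.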

How the results depend on the processing

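Of 1624 values recomputed under an alternative, 1527 kept their direction and their side of the threshold (counts stayed within 1.5 times). Myh7 and Myh7b kept theirs in both genotypes under each alternative. The count of members called in CXCR5-/- hearts, 5, was 2 without the 3 Sham arrays high in Myl7 and 3 to 6 with single arrays left out. It was 3 without CXCR5-/- AB replicate 2 or CXCR5-/- Sham replicate 2. The count in WT hearts, 3, was 5 with array weights and 5 by significance analysis of microarrays, through Myh6 and Myl1, and 3 to 4 with single arrays left out. The genotype and response comparisons had 0 members called throughout. The response difference has no significance analysis of microarrays and no fit of the compared groups alone, and Myl7 has no value with itself as covariate. Signs that turned were those of members that did not pass. Under quantile normalization Myl2 was 0.022 in CXCR5-/- and 0.015 in WT hearts. Myl4 in WT hearts was -0.029 with the replicate block and -0.24 to 0.90 with single arrays left out. Myl4 in CXCR5-/- hearts was 0.26 with array weights, 0.92 with Myl7 as covariate and 0.76 without the 3 Sham arrays. Myl7 in WT hearts was 0.12 without those arrays and -1.38 to 0.12 with single arrays left out. Arrays of an AB and a Sham group with the same number did not all deviate together. With the replicate block 6 members were called in CXCR5-/- hearts, where Myl7 passed (-1.96, adjusted p = 0.0354), and 4 in WT hearts, where Myh6 passed (-0.29, adjusted p = 0.0319). Stard10, Myl6b and Sox6 also passed there in WT hearts, and the block changed no other call of the genes it was followed for. These were the members and the list genes that passed in either AB comparison and are named, apart from Rxra, Mef2a, Myl6 and Myh10. The gap of Myh7 over Myh6 between operations stayed within 2.71 to 3.0 in CXCR5-/- and 2.04 to 2.29 in WT hearts. Without the 3 Sham arrays, where 1 CXCR5-/- Sham array remains, the calls of Mybpc2 (0.59), Tagln (0.79), Myl12a (0.37), Myl6b (0.96), Myh14 (-0.29), Sox6 (-0.31) and Stard10 (-0.44) in CXCR5-/- hearts were also lost. Stard10 had differed by -0.95 over all arrays. Nppa, Kcnj3, Unc45b, Myl12b, Mylk4, Mir208a, Dio2, Thrb and Slc16a10 kept their calls in both genotypes without those arrays. Over all genes, array weights raised the calls to 4770 from 2818 in CXCR5-/- and to 3408 from 1858 in WT hearts. Without the 3 Sham arrays CXCR5-/- hearts had 844, and without WT Sham replicate 2 or 3 WT hearts had 1025 and 1002. The causes were not tested.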
